A study of Homo sapiens with 6 samples.

Results

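The genes described here are those of the epithelial cytoskeleton and of cell contact: keratins and vimentin, cadherins, protocadherins, desmosomal proteins and EPCAM, claudins and tight junction scaffolds, connexins, S100 proteins, annexins, and mucins. They were taken by symbol, as every row of the deposited table that begins with KRT and a digit, CLDN, CDH and a digit, PCDH, DSG, DSC and a digit, TJP, GJA, GJB, S100, ANXA, MUC and a digit or CEACAM, or that is EPCAM, VIM or DSP. This gave 96 of the 8529 genes. The rule used symbols and no measured value, but earlier results of these data were known when the genes were chosen. CEACAM genes, CEACAM5 among them, gave 0 rows, and KRT8, CDH2 and TJP1 had no row in the table either, so they could not be analysed. SW480 is an established human colorectal cancer cell line, labelled WT for genotype, and all groups were this one line. Cells were kept for 72 h on MATRIGEN hydrogels of 2 kPa (soft) or 25 kPa (stiff), in L-15 medium with serum and without added CO2. RNA was sequenced from 3 libraries at each stiffness, described as triplicates, so p-values measure only the spread between these samples, which may be technical. The groups were compared to ask which genes respond to the stiffness of the matrix.

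Epithelial cells hold to each other through adherens junctions, where cadherins bind across the gap between cells, and through desmosomes, which anchor keratin filaments. Claudins seal the space between cells at tight junctions, and connexins form channels that join neighbouring cells. Keratins assemble as pairs of a type I and a type II chain, and simple epithelia such as that of the colon are known for KRT8 with KRT18, KRT19 and KRT20. S100 proteins and annexins bind calcium, and annexins also bind membrane lipids, some of them in complexes with an S100 partner.

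Expression was given in FPKM, a count of sequenced fragments divided by the length of the gene's exons and by the size of the library, which can be set side by side between genes. The FPKM summed to between 201030 and 263028 per library, the number of reads behind a value is unknown, and the spread between libraries is the only error that can be given. Between libraries of equal stiffness Pearson's r over all genes, which are no replicates, was 0.974 to 0.988. One library stood apart in these genes: 2 kPa replicate 2 was the highest of the 6 libraries in 36 of the 96 genes (37.5%), against 26.2% of all genes, and counts are therefore also given without it. Of 11 colon epithelial markers, 8 were in the table, with EPCAM at 64.67 to 100.75 FPKM, VIL1 at 13.95 to 23.51 FPKM and KRT18 at 2611.42 to 3357.69 FPKM, while KRT20, CDX1 and CDX2 were all under 1 FPKM. Fibroblast markers (2 of 7 in the table) summed to 0.30 to 1.05 FPKM and leukocyte markers (2 of 6) to 3.93 to 5.41 FPKM at 2 kPa and 2.32 to 3.54 FPKM at 25 kPa, and their part in the results was not tested. In bulk RNA, fewer cells expressing a gene and less of its RNA per cell cannot be told apart.

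At 25 kPa these genes lay more often below their 2 kPa level than genes of the table at large did, but 0 of the 96 passed the threshold over all genes. The 25 kPa and 2 kPa libraries were compared with limma on log2(FPKM + 1), and a gene was called at an adjusted p under 0.05, which 10 of 8529 genes (0.117%) reached. At an unadjusted p under 0.05 there were 11 of 96 (11.5%), close to the 10.2% of all genes, and the directions differed. The 11 comprised 8 genes lower at 25 kPa (8.33%, against 3.19% of all genes) and 3 genes higher (3.12%, against 6.96%). The 3 libraries of one stiffness lay wholly below or above those of the other, which gives p = 0.1 in a two-sided exact permutation test, the smallest this design allows, for 20 genes. Of these, 15 were lower at 25 kPa (15.6%, against 4.78% of all genes) and 5 were higher (5.21%, against 11.2%). The log2 fold change was below 0 in 61 of the 96 (63.5%), against 40.4% of all genes.

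These shares depended on the scaling between libraries, and the difference from the table at large was present under each scaling tried. With FPKM rescaled to equal library sums, 68 of the 96 were below 0 (54.4% of all genes), with quantile normalisation 69 (49.3%) and with median centring 75 (50.9%). The split at an unadjusted p under 0.05 was then 14 lower and 0 higher, 17 lower and 2 higher, and 11 lower and 2 higher. Over all 8529 genes the split was 398 lower and 297 higher, 451 lower and 471 higher, and 391 lower and 390 higher. Without rescaling, the split over all genes was 272 lower and 594 higher, so the table at large also moved towards lower. Median centring shifts log2(FPKM + 1) of all genes of a library by the same amount, also near the lower end of the table. With it, protocadherins below 0 went from 16 to 22 of 24 and desmosomal genes from 2 to 5 of 5. Its count of 75 is therefore no separate support. Without 2 kPa replicate 2, 51 of the 96 were below 0 (53.1%), against 34.3% of all genes. The count of lower genes at an unadjusted p under 0.05 was 4 without 2 kPa replicate 1 or without 25 kPa replicate 3. That of higher genes was 0 without 25 kPa replicate 1 or 3 and 1 without 2 kPa replicate 1 or 3. Over all genes, 866 were past that p in either direction with all libraries. Their number also fell, to 767 without 2 kPa replicate 1 and 765 without 2 kPa replicate 3. It was 622 without 25 kPa replicate 1 and 637 without 25 kPa replicate 3. The median log2 fold change was −0.04 for the 96 genes and 0.05 for all genes.

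**Figure D1:**
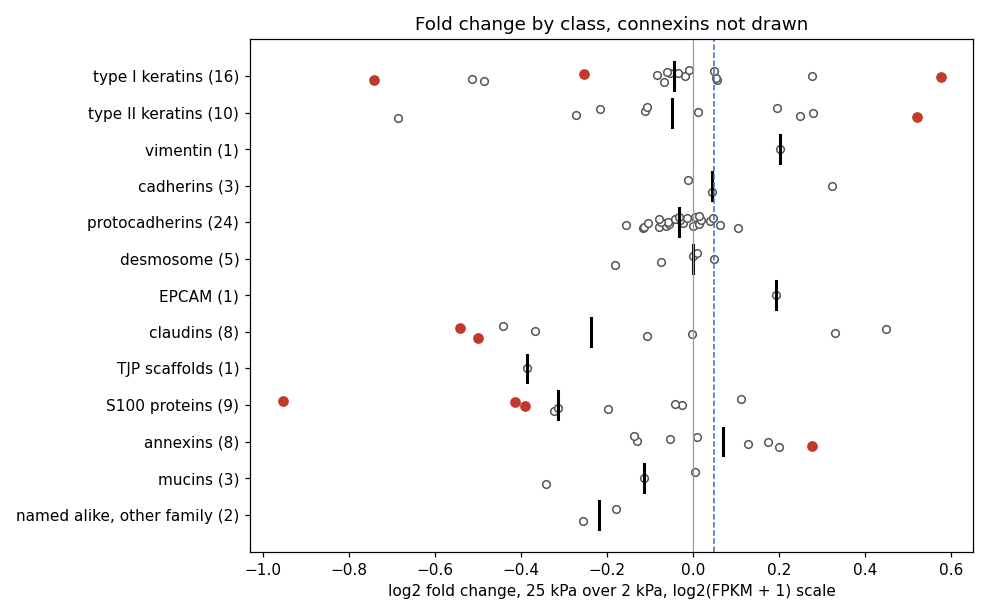
Log2 fold change at 25 kPa over 2 kPa, on the log2(FPKM + 1) scale, of single genes in rows by class, with the number of genes in parentheses and connexins not drawn. Filled points have an unadjusted limma p under 0.05, thick bars are class medians, the grey line is 0 and the dashed line is the median of all genes (0.05). S100 proteins and claudins lie mostly to the left, and the 10 filled points comprise 7 on the left and 3 on the right.

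Among gap junction genes, GJB2, a connexin of many epithelia, held 4.35, 3.67 and 2.67 FPKM at 2 kPa and 2.75, 1.92 and 2.47 FPKM at 25 kPa. One 25 kPa library lay just inside the 2 kPa range and the others below it. The log2 fold change was −0.42 ± 0.23 (SE, adjusted p = 0.593 in limma) with a 95% interval of −0.96 to 0.11. GJA1, the most widely expressed connexin of the body, was at 0.02 to 0.30 FPKM, and GJA5 at 0.12 to 0.30 FPKM, both with overlapping groups. Of the 5 connexins, 4 had a log2 fold change below 0, against 40.4% of all genes, with a class median of −0.22.

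CLDN4 was the most abundant claudin, and it was lower at 25 kPa. The 300 bases around its start, from RefSeq, are shown because it is the claudin with the smallest p, with capitals marking each match to a searched motif, here TGANTCA, the AP-1 site.
CLDN4 promoter, GRCh38.p14 chr7:73830746-73831045, forward strand: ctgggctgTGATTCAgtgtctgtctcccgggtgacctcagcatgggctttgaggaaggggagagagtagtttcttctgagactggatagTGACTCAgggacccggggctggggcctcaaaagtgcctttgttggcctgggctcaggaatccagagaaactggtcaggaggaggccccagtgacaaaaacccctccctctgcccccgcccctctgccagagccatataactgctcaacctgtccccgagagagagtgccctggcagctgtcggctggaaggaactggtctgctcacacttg

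CLDN4 held 170.61, 197.64 and 157.64 FPKM at 2 kPa and 120.09, 151.34 and 102.50 FPKM at 25 kPa. The highest 25 kPa library lay below the lowest 2 kPa library, with means of 175 ± 20.4 FPKM at 2 kPa and 125 ± 24.7 FPKM at 25 kPa (SD, n = 3). The log2 fold change was −0.50 ± 0.16 (SE, adjusted p = 0.341 in limma), with a 95% interval of −0.87 to −0.13. Its unadjusted p stayed under 0.05 in 13 of 14 alternative settings, the exception being the fit without 25 kPa replicate 3. CLDN3, the neighbour of CLDN4 in the genome and a sealing claudin like it, held 9.98, 12.79 and 8.42 FPKM at 2 kPa and 10.84, 9.89 and 7.84 FPKM at 25 kPa, and its libraries overlapped.

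CLDN15, which forms cation channels in the intestine, held 2.33, 2.65 and 2.43 FPKM at 2 kPa and 1.02, 1.32 and 1.89 FPKM at 25 kPa, with no overlap between the groups. Its log2 fold change was −0.54 ± 0.22 (SE, adjusted p = 0.453 in limma), and its unadjusted p was under 0.05 in 8 of 14 alternative settings, but not with the replicate block or without any one of 5 of the 6 libraries. CLDN23 went the other way, with 1.83, 1.71 and 1.39 FPKM at 2 kPa and 2.34, 2.96 and 2.52 FPKM at 25 kPa, also without overlap, a log2 fold change of 0.45 ± 0.21 (SE, adjusted p = 0.523 in limma) and a 95% interval of −0.03 to 0.92. CLDN15 and CLDN23 had the lowest and the highest fold change of the 8 claudins.

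The other claudins did not separate the stiffness levels. CLDN1, a core component of the tight junction strand, held 6.30, 11.02 and 5.10 FPKM at 2 kPa and 10.25, 6.90 and 10.94 FPKM at 25 kPa, with its 25 kPa libraries inside the 2 kPa range. CLDN11 held 9.05, 8.47 and 9.04 FPKM at 2 kPa and 5.34, 5.29 and 10.14 FPKM at 25 kPa, where 25 kPa replicate 3 stood above all 2 kPa libraries and the other two below. CLDN12 was nearly equal, with means of 8.72 ± 1.39 FPKM at 2 kPa and 8.71 ± 1.37 FPKM at 25 kPa (SD, n = 3), and CLDN9 was at 0.40 to 1.94 FPKM. Over the 8 claudins 6 were below 0, against 40.4% of all genes, with a median of −0.24. Without 2 kPa replicate 2 that became 4 of 8, against 34.3% of all genes, and a median of −0.09.

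TJP3, the ZO-3 scaffold that ties claudins to actin, was the one TJP gene in the table. It held 1.60, 1.70 and 1.59 FPKM at 2 kPa and 1.57, 0.45 and 1.19 FPKM at 25 kPa. The groups did not overlap, but 2 kPa replicate 3 and 25 kPa replicate 1 were nearly equal, and 25 kPa replicate 2 was far below the rest. The log2 fold change was −0.39 ± 0.24 (SE, adjusted p = 0.644 in limma), and −0.15 without 25 kPa replicate 2.

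EPCAM and the cadherins showed no difference beyond the spread between libraries. EPCAM, the epithelial adhesion molecule of colorectal cells, held 71.24, 86.79 and 64.67 FPKM at 2 kPa and 100.75, 77.92 and 76.43 FPKM at 25 kPa. The log2 fold change was 0.19 ± 0.15 (SE, adjusted p = 0.746 in limma) with a 95% interval of −0.16 to 0.54. CDH1, E-cadherin, held 3.64, 8.68 and 3.71 FPKM at 2 kPa and 4.86, 5.55 and 5.05 FPKM at 25 kPa, where 2 kPa replicate 2 was more than any other library and the remaining 2 kPa libraries were the lowest of all. The means were 5.34 ± 2.89 FPKM at 2 kPa and 5.15 ± 0.356 FPKM at 25 kPa (SD, n = 3), and the log2 fold change was 0.04 ± 0.29 (SE, adjusted p = 0.980 in limma) with a 95% interval of −0.62 to 0.71. The sign of CDH1 was not stable: it was −0.07 with equal library sums, −0.03 with quantile normalisation and −0.01 with median centring, and 0.39 without 2 kPa replicate 2. CDH24, a classical-type cadherin that binds catenins, held 2.19, 1.39 and 1.78 FPKM at 2 kPa and 3.78, 1.61 and 2.33 FPKM at 25 kPa, a log2 fold change of 0.32 ± 0.27 (SE, adjusted p = 0.769 in limma). CDH15, the muscle cadherin, was at 0.18 to 0.41 FPKM.

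Desmosomal genes were low and overlapped between the groups. DSG2, the desmoglein of simple epithelia, held 6.37, 9.45 and 4.16 FPKM at 2 kPa and 6.60, 3.74 and 6.58 FPKM at 25 kPa, a log2 fold change of −0.18 ± 0.30 (SE, adjusted p = 0.903 in limma). DSP, desmoplakin, which links the desmosome to keratin filaments, held 0.41, 1.00 and 0.21 FPKM at 2 kPa and 0.23, 0.40 and 0.70 FPKM at 25 kPa, a log2 fold change of −0.07 ± 0.20 (SE, adjusted p = 0.942 in limma). DSC2 was at 0.23 to 0.75 FPKM, and DSG1 and DSG3, desmogleins of the epidermis, were at 0.01 to 0.07 FPKM. By limma, 0 of the 5 desmosomal genes were under an unadjusted p of 0.05, against 10.2% of all genes, and 5 genes are too few to set against that share. CDH1 and DSG2 each overlap an antisense gene in GENCODE 29.

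**Figure D2:**
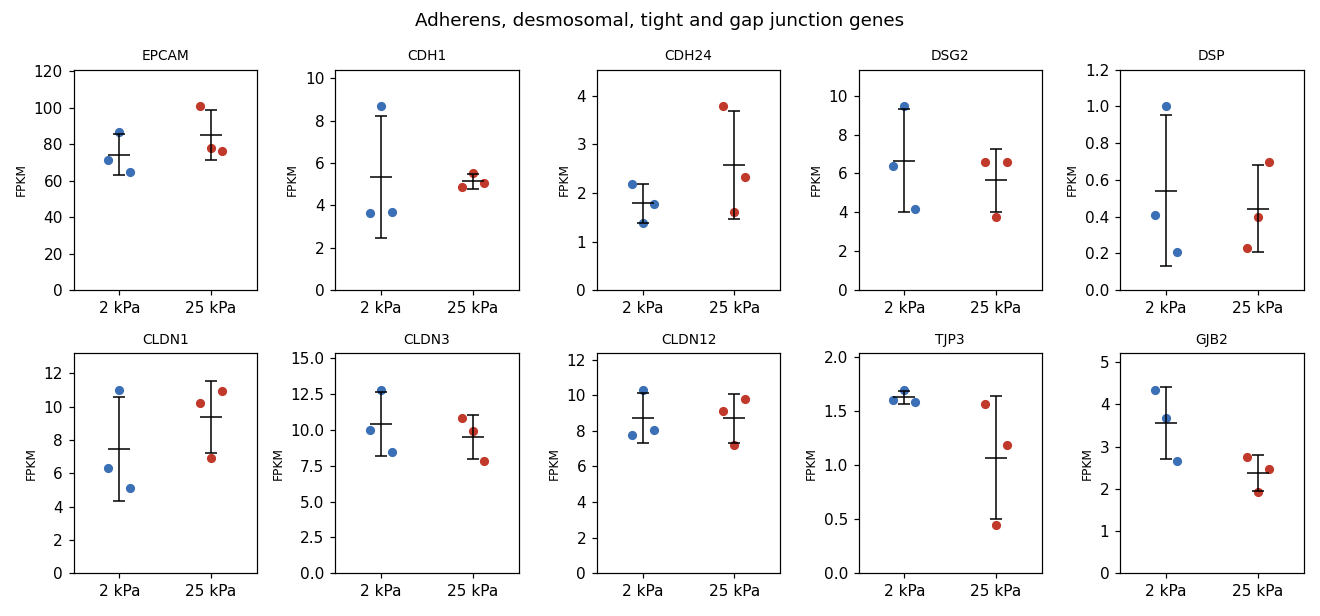
FPKM in each library of 10 genes of adhesion, desmosomes, tight junctions and gap junctions, at 2 kPa (blue) and 25 kPa (red). Points are libraries, bars are the mean ± SD (n = 3), and each axis starts at 0. The groups overlap in all panels but TJP3, and one CDH1 library at 2 kPa (8.68 FPKM) stands above the other 5. The claudins CLDN4, CLDN15 and CLDN23, whose groups do not overlap, are not among the 10 genes drawn.

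KRT18 was the most abundant of the 96 genes, and the next keratins by level, KRT5 and KRT19, were lower at 25 kPa in all libraries. KRT18 held 2963.19, 2912.75 and 3101.04 FPKM at 2 kPa and 2656.07, 3357.69 and 2611.42 FPKM at 25 kPa, with overlapping groups and a log2 fold change of −0.07 ± 0.28 (SE, adjusted p = 0.966 in limma). KRT19, a type I keratin of simple epithelia, held 1614.88, 1448.46 and 1623.44 FPKM at 2 kPa and 909.39, 1401.56 and 1084.07 FPKM at 25 kPa. Its groups did not overlap, and the log2 fold change was −0.49 ± 0.23 (SE, adjusted p = 0.537 in limma), with a 95% interval of −1.01 to 0.04. KRT5, the type II keratin of basal cells in stratified epithelia, held 1452.91, 1848.74 and 1652.78 FPKM at 2 kPa and 657.03, 1413.75 and 1145.25 FPKM at 25 kPa. All 25 kPa libraries of KRT5 lay below the 2 kPa libraries, with a log2 fold change of −0.69 ± 0.30 (SE, adjusted p = 0.491 in limma) and a 95% interval of −1.37 to 0.00. Without 25 kPa replicate 1, the lowest library, the log2 fold change of KRT5 was −0.37. The gap was narrow in both genes, since 25 kPa replicate 2 came close to the lowest 2 kPa library.

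KRT14, the usual type I partner of KRT5, was at 0.23 to 0.57 FPKM in the same libraries. KRT20, which marks differentiated colon epithelium, was at 0.02 to 0.10 FPKM, a log2 fold change of −0.01 ± 0.06 (SE, adjusted p = 0.981 in limma). Keratins are close paralogs, so reads of one may have been given to another, and KRT18 overlaps KRT8 on the opposite strand in GENCODE 29. Whether the counting used strand is not given in the sources used here, which leaves these levels uncertain.

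The keratins with the smallest p in each direction were less abundant. KRT13, a type I keratin of internal stratified epithelia, held 3.67, 4.67 and 3.45 FPKM at 2 kPa and 2.36, 1.91 and 1.58 FPKM at 25 kPa, so that each 25 kPa library was under each 2 kPa library. Its log2 fold change was −0.74 ± 0.22 (SE, adjusted p = 0.30 in limma), and its unadjusted p stayed under 0.05 in 14 of 14 alternative settings. KRT38, a hair keratin, was near the lower end of the table with 0.42, 0.27 and 0.17 FPKM at 2 kPa and 0.10, 0.09 and 0.04 FPKM at 25 kPa, a log2 fold change of −0.25 ± 0.09 (SE, adjusted p = 0.361 in limma), with an unadjusted p under 0.05 in 10 of 13 alternative settings. KRT16, a keratin of stressed and wounded epithelium, was named after its values were seen and held 2.75, 1.51 and 1.59 FPKM at 2 kPa and 0.68, 1.10 and 1.37 FPKM at 25 kPa. Its groups were also apart, with a log2 fold change of −0.51 ± 0.24 (SE, adjusted p = 0.525 in limma).

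The promoter of KRT38 is shown because it is the keratin with the smallest p among those the promoter table holds. Its capitals mark the motif GGAATG of TEAD factors on the opposite strand.
KRT38 promoter, GRCh38.p14 chr17:41440934-41441233, reverse strand: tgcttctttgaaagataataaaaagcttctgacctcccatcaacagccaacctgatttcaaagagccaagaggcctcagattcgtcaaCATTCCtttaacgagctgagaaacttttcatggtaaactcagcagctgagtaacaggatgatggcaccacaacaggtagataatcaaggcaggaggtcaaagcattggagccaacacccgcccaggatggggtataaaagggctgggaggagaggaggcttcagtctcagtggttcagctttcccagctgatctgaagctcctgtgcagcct

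KRT23 and KRT81 were the keratins higher at 25 kPa at an unadjusted p under 0.05. KRT23, a type I keratin expressed in some colorectal tumours, held 0.52, 0.87 and 0.85 FPKM at 2 kPa and 1.99, 1.05 and 1.84 FPKM at 25 kPa, a log2 fold change of 0.58 ± 0.21 (SE, adjusted p = 0.400 in limma). KRT81, a type II hair keratin, held 6.79, 12.66 and 8.61 FPKM at 2 kPa and 13.55, 13.19 and 13.62 FPKM at 25 kPa. The 25 kPa libraries of KRT81 were nearly equal and above the highest 2 kPa library, with a log2 fold change of 0.52 ± 0.20 (SE, adjusted p = 0.426 in limma). KRT13 and KRT23 each overlap an antisense gene, and KRT81 overlaps KRT86, a close paralog, on the opposite strand, so their levels are uncertain. KRT23 and KRT81 were not under an unadjusted p of 0.05 with equal library sums, and were under it in 9 and 8 of 14 alternative settings.

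In all, 11 of 16 type I keratins and 5 of 10 type II keratins had a log2 fold change below 0, against 40.4% of all genes. Their medians were −0.04 and −0.05. Type I genes in one run of the RefSeq gene order (GRCh38.p14) held 9 of 11 below 0 and 4 of 11 with groups apart. All 4 were lower, against 4.78% of all genes apart and lower. A run joins listed genes that lie close together, with other genes allowed between them. A second run on the same chromosome, with KRT10, KRT20, KRT23 and KRT39, held 1 of 4 below 0. The type II run on another chromosome, which also holds KRT18, had 6 of 11 below 0. The 16 keratins not described above had means from 0.0583 to 8.99 FPKM over the 6 libraries, among them KRT17 at 7.01 to 11.93 FPKM and KRT74 at 4.62 to 10.97 FPKM.

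Summed over each class, type I keratins outweighed type II keratins in every library. The ratio of the sums was 3.13, 2.34 and 2.84 at 2 kPa and 5.22, 3.32 and 3.18 at 25 kPa, so each 25 kPa library had a higher ratio than each 2 kPa library. KRT8 is not among the genes summed. The type II sum was nearly all KRT5, with 1651 ± 198 FPKM at 2 kPa and 1072 ± 384 FPKM at 25 kPa (SD, n = 3) against class sums of 1672 ± 202 and 1098 ± 381 FPKM, so the ratio and the type II share follow that one gene, whose level is uncertain. Type I keratins made up 1.97%, 2.18% and 2.01% of the summed FPKM of the 2 kPa libraries and 1.55%, 1.82% and 1.58% of those at 25 kPa. For type II keratins the shares were 0.630%, 0.932% and 0.709% at 2 kPa and 0.296%, 0.547% and 0.496% at 25 kPa. Neither pair of shares overlapped, whereas the plain FPKM sums of type I keratins did, at 4380 to 4741 FPKM at 2 kPa and 3583 to 4778 FPKM at 25 kPa.

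The 96 genes together held 4.47%, 5.07% and 4.82% of the summed FPKM at 2 kPa and 3.33%, 3.98% and 3.63% at 25 kPa. These shares were apart, but the plain sums were 10659 ± 610 FPKM at 2 kPa and 8913 ± 1418 FPKM at 25 kPa (SD, n = 3) and overlapped. A few abundant genes set most of these totals. KRT18, S100A4, KRT5, KRT19 and S100A6 had means of 2934, 1458, 1362, 1347 and 1038 FPKM over the 6 libraries. The median of the 96 gene means was 0.725 FPKM, and the level of KRT5 is uncertain.

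**Figure D3:**
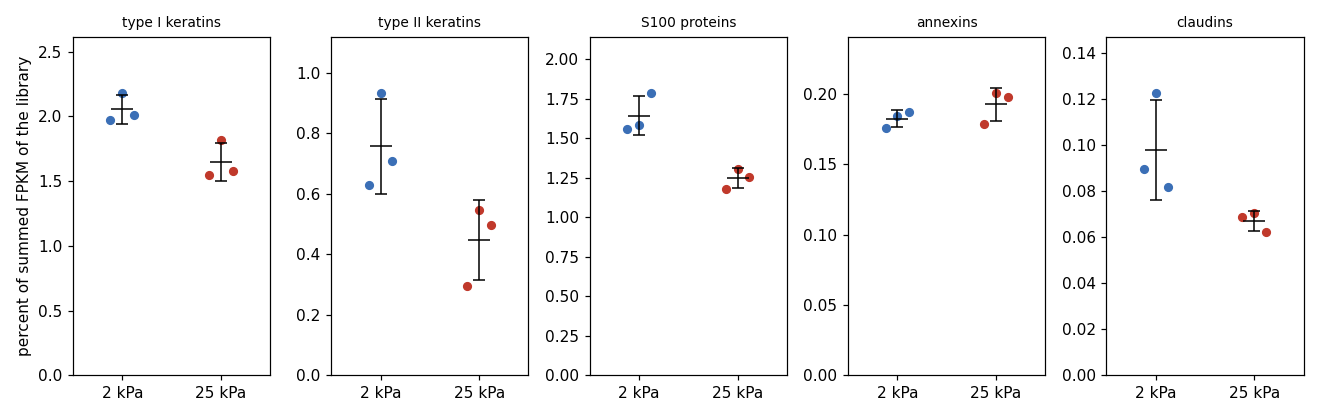
Summed FPKM of 5 gene classes as a percent of the summed FPKM of all genes in each library, at 2 kPa (blue) and 25 kPa (red). Points are libraries and bars are the mean ± SD (n = 3), with axes from 0. The shares of type I keratins, type II keratins, S100 proteins and claudins do not overlap between the groups and are lower at 25 kPa, while those of annexins overlap. The plain FPKM sums of type I keratins and of S100 proteins, not drawn, do overlap. CLDN4 makes up most of the claudin sum, with means of 175 of 216 FPKM at 2 kPa and 125 of 164 FPKM at 25 kPa.

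Vimentin, the intermediate filament of mesenchymal cells, was low. VIM held 0.62, 0.37 and 0.34 FPKM at 2 kPa and 0.49, 1.01 and 0.51 FPKM at 25 kPa, a log2 fold change of 0.20 ± 0.16 (SE, adjusted p = 0.735 in limma) with a 95% interval of −0.15 to 0.56. The highest value was 25 kPa replicate 2, and the remaining 25 kPa libraries lay inside the 2 kPa range. VIM overlaps an antisense gene, so its level is uncertain.

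S100 proteins lay below 0 in 8 of 9 genes, against 40.4% of all genes. Without 2 kPa replicate 2 it was 7 of 9, against 34.3% of all genes. The lower genes stayed 8 of 9 under the 3 other scalings. The share of all genes was then 54.4% with equal library sums, 49.3% with quantile normalisation and 50.9% with median centring. Their median log2 fold change was −0.32, and it was −0.16 without 2 kPa replicate 3 and −0.40 without 2 kPa replicate 2. The 8 are S100A genes of chromosome 1, of which S100A6, S100A4, S100A3, S100A2, S100A16 and S100A13 form one run in the RefSeq gene order and S100A10 and S100A11 another. The ninth, S100P, lies on another chromosome. Promoters of S100A3 and S100A16 are shown as members of that run with groups apart. Capitals mark TGANTCA in S100A3, and GGAATG and CAGGTG, the E-box bound by SNAI and ZEB factors, in S100A16.
S100A3 promoter, GRCh38.p14 chr1:153549209-153549508, reverse strand: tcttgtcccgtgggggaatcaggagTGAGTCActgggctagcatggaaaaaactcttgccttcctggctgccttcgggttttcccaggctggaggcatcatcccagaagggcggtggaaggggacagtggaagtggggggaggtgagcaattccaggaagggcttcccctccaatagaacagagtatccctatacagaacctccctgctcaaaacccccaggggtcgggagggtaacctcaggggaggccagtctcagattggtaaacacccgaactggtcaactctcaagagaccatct
S100A16 promoter, GRCh38.p14 chr1:153613088-153613387, reverse strand: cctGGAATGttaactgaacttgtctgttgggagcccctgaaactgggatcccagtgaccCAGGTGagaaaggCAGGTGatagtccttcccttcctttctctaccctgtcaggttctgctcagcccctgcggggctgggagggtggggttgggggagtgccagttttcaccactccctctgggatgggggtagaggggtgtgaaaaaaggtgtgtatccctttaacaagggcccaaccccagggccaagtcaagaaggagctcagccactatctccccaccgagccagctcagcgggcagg

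S100A3, an S100 protein best known from hair, held 17.20, 7.00 and 10.11 FPKM at 2 kPa and 6.33, 6.18 and 3.23 FPKM at 25 kPa. Its groups were apart, though the lowest 2 kPa library was only just above the highest 25 kPa library. The means were 11.4 ± 5.23 FPKM at 2 kPa and 5.25 ± 1.75 FPKM at 25 kPa (SD, n = 3) and the log2 fold change was −0.95 ± 0.33 (SE, adjusted p = 0.356 in limma). S100A3 and S100A4 overlap on the same strand in GENCODE 29, and S100A4 was far more abundant, so the level of S100A3 is uncertain where the counting could have shared reads.

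S100A16 and S100A13, which lie in the same run, were abundant and also apart. S100A16 held 70.23, 59.56 and 53.46 FPKM at 2 kPa and 47.97, 53.08 and 36.48 FPKM at 25 kPa, a log2 fold change of −0.41 ± 0.16 (SE, adjusted p = 0.429 in limma). S100A13, which takes part in the unconventional release of growth factors, held 178.24, 142.11 and 221.38 FPKM at 2 kPa and 134.23, 137.14 and 134.69 FPKM at 25 kPa. All 25 kPa libraries of S100A13 lay below the 2 kPa libraries and were nearly equal. The means were 181 ± 39.7 FPKM at 2 kPa and 135 ± 1.56 FPKM at 25 kPa (SD, n = 3), and the log2 fold change was −0.39 ± 0.16 (SE, adjusted p = 0.457 in limma). Its unadjusted p was under 0.05 in 6 of 14 alternative settings, against 11 of 14 for S100A16 and 12 of 14 for S100A3. S100A13 overlaps S100A1 on the opposite strand.

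The most abundant S100 genes overlapped between the groups. S100A4, linked to cell motility, held 1427.02, 1438.13 and 2010.79 FPKM at 2 kPa and 1099.76, 1497.15 and 1277.70 FPKM at 25 kPa, a log2 fold change of −0.32 ± 0.24 (SE, adjusted p = 0.730 in limma) with a 95% interval of −0.88 to 0.23. S100A6, calcyclin, held 1190.51, 890.28 and 1257.17 FPKM at 2 kPa and 897.90, 1072.22 and 918.28 FPKM at 25 kPa. S100A2 held 439.83, 300.64 and 383.98 FPKM at 2 kPa and 269.01, 366.37 and 267.03 FPKM at 25 kPa, where one 25 kPa library lay inside the 2 kPa range.

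S100A10, the partner of ANXA2, was nearly level with means of 159 ± 22.4 FPKM at 2 kPa and 155 ± 6.93 FPKM at 25 kPa (SD, n = 3), and S100A11, the partner of ANXA1, likewise with 150.0 ± 17.3 FPKM at 2 kPa and 145 ± 14.2 FPKM at 25 kPa (SD, n = 3). S100P held 2.03, 1.51 and 2.58 FPKM at 2 kPa and 1.93, 1.63 and 3.46 FPKM at 25 kPa, a log2 fold change of 0.11 ± 0.27 (SE, adjusted p = 0.936 in limma), which became −0.12 without 25 kPa replicate 3 and −0.02 without 2 kPa replicate 2. The summed FPKM of S100 genes was 1.56%, 1.59% and 1.79% of the library at 2 kPa and 1.18%, 1.31% and 1.26% at 25 kPa. These shares were apart, but the plain sums overlapped, at 3189 to 4210 FPKM at 2 kPa and 2734 to 3441 FPKM at 25 kPa.

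**Figure D4:**
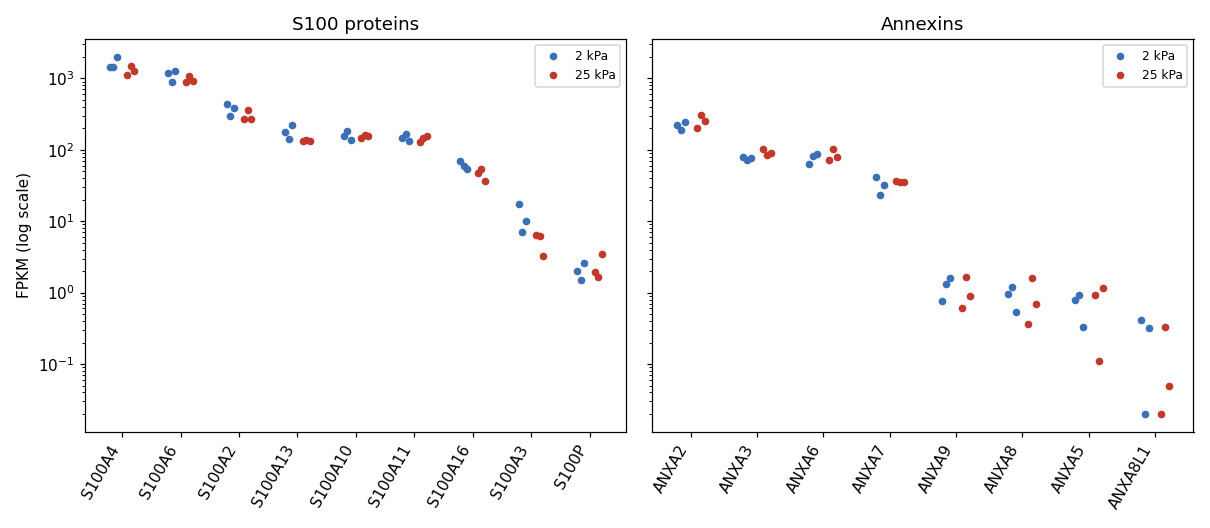
FPKM on a log scale of 9 S100 genes (left) and 8 annexin genes (right) in each library at 2 kPa (blue) and 25 kPa (red), ordered by mean level within each class. S100A3, S100A13 and S100A16 lie lower at 25 kPa without overlap, and ANXA3 lies higher without overlap.

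Of the annexins 3 of 8 were below 0, near the 40.4% of all genes, and the median of 0.07 was near that of all genes (0.05). That median was −0.01 with equal library sums, −0.02 with quantile normalisation and 0.02 with median centring, so no direction of the class held across scalings. ANXA3 was the annexin with the smallest p, and its promoter is shown for that reason. Capitals mark CAGGTG, once as written and once on the opposite strand.
ANXA3 promoter, GRCh38.p14 chr4:78551520-78551819, forward strand: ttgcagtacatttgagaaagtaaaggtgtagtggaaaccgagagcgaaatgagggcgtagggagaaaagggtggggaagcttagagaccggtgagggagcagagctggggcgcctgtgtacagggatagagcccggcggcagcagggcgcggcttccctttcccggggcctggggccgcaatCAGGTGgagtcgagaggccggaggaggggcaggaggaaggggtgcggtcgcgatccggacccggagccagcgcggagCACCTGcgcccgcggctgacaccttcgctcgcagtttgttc

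ANXA3, whose product binds phospholipids, held 79.58, 71.45 and 76.96 FPKM at 2 kPa and 101.88, 84.18 and 91.42 FPKM at 25 kPa. All 25 kPa libraries were above the 2 kPa libraries, with means of 76.0 ± 4.15 FPKM at 2 kPa and 92.5 ± 8.90 FPKM at 25 kPa (SD, n = 3) and a log2 fold change of 0.28 ± 0.11 (SE, adjusted p = 0.455 in limma). Its unadjusted p was under 0.05 in 3 of 14 alternative settings, and its log2 fold change ranged from 0.15 to 0.34 over them. ANXA2, the most abundant annexin, held 223.94, 191.51 and 242.61 FPKM at 2 kPa and 202.20, 303.96 and 256.83 FPKM at 25 kPa, a log2 fold change of 0.20 ± 0.17 (SE, adjusted p = 0.782 in limma) with a 95% interval of −0.20 to 0.60.

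ANXA6 was at 62.92 to 101.24 FPKM and ANXA7 at 23.48 to 41.46 FPKM, both with overlapping groups. ANXA9 held 0.77, 1.32 and 1.59 FPKM at 2 kPa and 0.61, 1.65 and 0.90 FPKM at 25 kPa, a log2 fold change of −0.13 ± 0.24 (SE, adjusted p = 0.913 in limma). ANXA5, ANXA8 and ANXA8L1 were at 0.02 to 1.59 FPKM, and the last pair are near-identical copies between which reads could have been split.

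**Figure D5:**
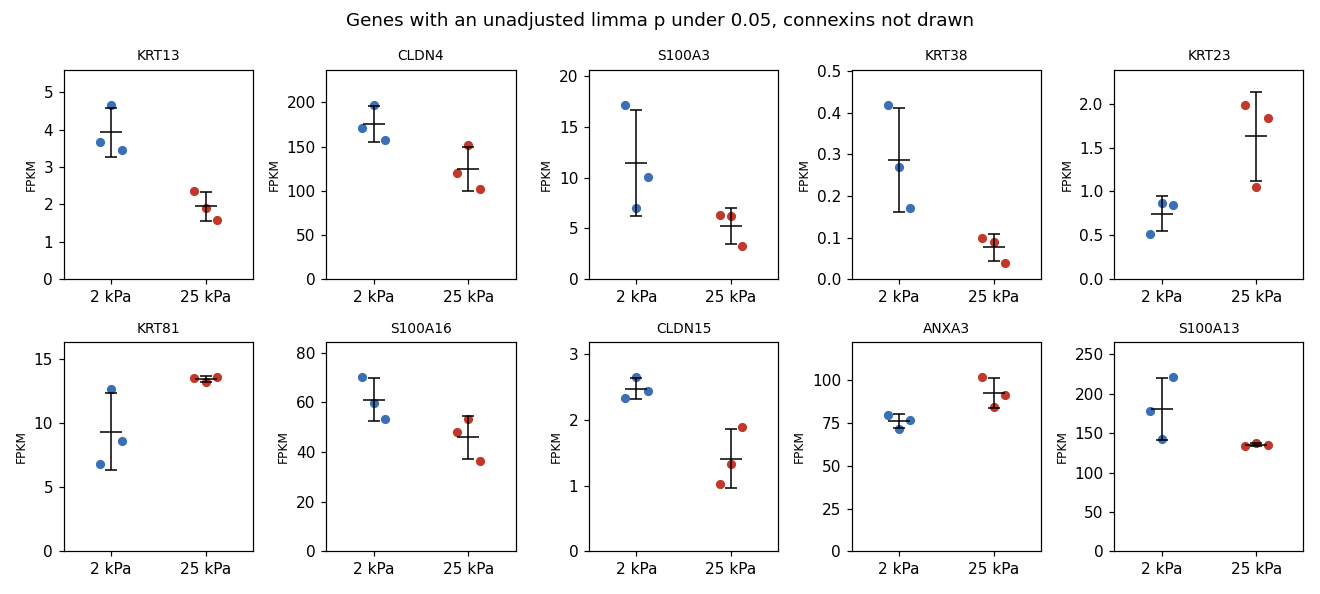
FPKM in each library of 10 genes with an unadjusted limma p under 0.05, ordered by p, with connexins not drawn, at 2 kPa (blue) and 25 kPa (red). Points are libraries, bars are the mean ± SD (n = 3), and each axis starts at 0. In all 10 panels the groups do not overlap, with 7 lower and 3 (KRT23, KRT81 and ANXA3) higher at 25 kPa.

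Protocadherins, the largest class with 24 genes, were all at a mean under 1 FPKM. By limma, 0 of them passed an unadjusted p under 0.05, against 10.2% of all genes. The highest was PCDHGC3, a cell surface protein of the gamma cluster, with 0.68, 0.85 and 0.69 FPKM at 2 kPa and 0.40, 1.05 and 1.28 FPKM at 25 kPa and a log2 fold change of 0.11 ± 0.20 (SE, adjusted p = 0.918 in limma). PCDHB13 held 0.20, 0.32 and 0.15 FPKM at 2 kPa and 0.14, 0.03 and 0.12 FPKM at 25 kPa and PCDHB5 held 0.22, 0.32 and 0.35 FPKM at 2 kPa and 0.20, 0.21 and 0.18 FPKM at 25 kPa, both apart and lower at 25 kPa, while PCDHGB1 was apart and higher at 0.01 to 0.06 FPKM. These 3 were named after their values were seen. In the class as a whole 16 of 24 were below 0, against 40.4% of all genes, with a median of −0.03. Without 2 kPa replicate 2, 11 of 24 were below 0, against 34.3% of all genes, and the median was 0.01. Genes of the gamma cluster share exons, so reads could have been split among them.

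Mucins were low as well. MUC13, a transmembrane mucin of the intestine, held 1.2, 3.03 and 1.31 FPKM at 2 kPa and 1.24, 0.90 and 1.36 FPKM at 25 kPa, a log2 fold change of −0.34 ± 0.27 (SE, adjusted p = 0.742 in limma). That value rested on 2 kPa replicate 2, without which it was −0.06. MUC16, named after its values were seen, was apart at 0.16, 0.35 and 0.20 FPKM at 2 kPa and 0.15, 0.15 and 0.12 FPKM at 25 kPa, and MUC5B was at 0.01 to 0.02 FPKM. ANXA2R and CLDND2 matched the rule by their first letters but belong to no family listed here. ANXA2R held 0.66, 0.97 and 0.42 FPKM at 2 kPa and 0.19, 0.44 and 0.59 FPKM at 25 kPa, and CLDND2 was at 0.17 to 0.69 FPKM.

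Other genes of junctions and of their control were taken from a list of 48, of which 25 were in the table. By limma, 0 passed an adjusted p under 0.05, and at an unadjusted p under 0.05 there was 1 higher (4%, against 6.96% of all genes) and 2 lower (8%, against 3.19%). PKP2, plakophilin 2 of the desmosomal plaque, held 14.76, 20.08 and 12.21 FPKM at 2 kPa and 26.26, 18.37 and 23.84 FPKM at 25 kPa, a log2 fold change of 0.53 ± 0.20 (SE, adjusted p = 0.409 in limma). CDX2, the transcription factor of intestinal identity, held 0.57, 0.79 and 0.67 FPKM at 2 kPa and 0.31, 0.27 and 0.07 FPKM at 25 kPa, a log2 fold change of −0.47 ± 0.12 (SE, adjusted p = 0.224 in limma). SNAI3, a relative of the E-cadherin repressor SNAI1, held 0.47, 0.67 and 0.71 FPKM at 2 kPa and 0.35, 0.44 and 0.23 FPKM at 25 kPa. CDX2 and SNAI3 were apart and lower, while PKP2 libraries overlapped. Among those not under that p were CTNNB1 and JUP, the catenins of cell junctions, OCLN, SNAI1 and SNAI2. Of the 25 genes 12 were below 0, against 40.4% of all genes. The count was 17 with equal library sums (54.4% of all genes), 16 with quantile normalisation (49.3%) and 16 with median centring (50.9%), so it moved together with the table at large. It was 8 without 2 kPa replicate 2 (34.3% of all genes).

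Promoters of 70 of the 96 genes were in the RefSeq table (GRCh38.p14), each from 250 bases before to 50 after the start, and 4 motifs were searched on both strands. GAANNTTC and TGANTCA read the same on both strands, and matches of GGAATG and GAANNTTC may overlap. GAANNTTC, the core of the heat shock element, was in 6 of 70 (8.57%) and in 6.87% of 27305 promoters of the same length. GGAATG, the TEAD motif, was in 6 of 70 (8.57%) and 14% of all. CAGGTG was in 19 of 70 (27.1%) and 20.6% of all, and TGANTCA in 7 of 70 (10.0%) and 7.76% of all. Of the 11 genes past an unadjusted p under 0.05, 7 had a promoter in the table, with GAANNTTC in 0, GGAATG in 3, CAGGTG in 2 and TGANTCA in 3. A match of letters is a description and not a binding site.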

How the data were processed

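RNA of SW480 cells on 2 kPa and 25 kPa hydrogels was measured in 6 libraries, 3 per stiffness, grouped by the submitted sample titles. The deposited values are FPKM, which the authors computed from the reads; their processing notes name HISAT, StringTie, Bowtie2, RSEM and the hg18 build without roles or versions. The table held 8529 genes, 0 unmapped columns and 0 values equal to 0. The lowest was 0.01 FPKM, so low values are coarse. Depth is unknown: among genes of 0.3 to 3 FPKM, no steps of whole reads were found, since the fullest 1% window of library ratios held 1.22 to 1.78% of genes. The study's methods name DESeq2, a count model, which was not run because the values are not counts.

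Values were compared as log2(FPKM + 1) with limma 3.58.1 (R 4.3.3; linear model, empirical Bayes with variance trend, two-sided), with no filter on low values, and p-values were Benjamini-Hochberg adjusted over all 8529 genes with a threshold of 0.05. A fold change on this scale understates the change of low genes. In simulated data with 200 changed genes among 8529, 13% of those changed by 0.75 and 82% of those changed by 1.5 (log2) were recovered. The changed genes were drawn only from those with a mean log2(FPKM + 1) above 1. The rates therefore do not cover lower genes, and 55 of the 96 genes had a mean under 1 FPKM. Libraries counted as apart did not overlap between stiffness levels. Alternatives were other pseudocounts, a filter, other scalings, no variance trend, the replicate block and each library left out. The genes and lists were chosen with earlier results of these data known. Values by library are given for genes with an unadjusted p under 0.05, the most abundant gene of each class, the largest rise and fall of each class among genes with a mean of at least 1 FPKM, and EPCAM, VIM, DSP, CDH1 and the keratins KRT18, KRT19 and KRT20. Some connexin results are not reported here. Others given singly were chosen after their values were seen. Of the list of other junction genes, those with an unadjusted p under 0.05 are given. Promoters came from RefSeq (GRCh38.p14), overlaps from GENCODE 29. Tables and plots used Python 3.11.15, numpy 2.4.6, pandas 2.3.3 and matplotlib 3.10.9.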

Additional observations from a re-analysis of the deposited data

How the results depend on the processing

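At an adjusted p under 0.05 (limma), 0 of the 96 genes passed in any of the 14 alternatives. Depth is unknown, genes under 1 FPKM rest on coarse values, and 3 libraries per group allow no smaller exact permutation p than 0.1. Over all genes the number past the adjusted threshold (10) was 17 with a pseudocount of 0.1, 6 without the variance trend and 3 to 11 with a library left out. Of the 96 genes, those higher at an unadjusted p under 0.05 (3) numbered 0 with equal library sums and 0 to 4 with a library left out. Those lower (8) numbered 14 with equal library sums, 17 with quantile normalisation and 4 to 10 with a library left out. Over all genes, the lower (272) numbered 398 with equal library sums, 451 with quantile normalisation and 391 with median centring. The higher of all genes (594) numbered 297, 471 and 390 in turn. With a library left out, 622 to 998 of all genes were past that p in either direction, against 866 with all libraries. In the list of other junction genes, the higher (1) numbered 0 with equal library sums and 0 to 2 with a library left out. The lower (2) numbered 1 with either smaller pseudocount, with median centring or without the variance trend, 0 with the filter at a mean of 1 FPKM and 1 to 4 with a library left out.

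The replicate numbers showed no sign of pairing the samples. Deviations of equally numbered libraries correlated at 0.115, −0.267 and −0.125, and 1 of 6 libraries correlated best with its own number. With 3 libraries per group these values cannot exclude a pairing. With the replicate block, 3 of all genes passed the adjusted threshold and 0 of the 96 did. At an unadjusted p under 0.05, 1 of the 96 was higher, and the other junction genes gave 0 higher and 1 lower. Over all genes, 713 were then past that p in either direction, against 866 without the block.

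Median log2 fold changes moved with the pseudocount in some classes. At pseudocounts of 0.1 and 0.01 in turn, the median was −0.17 and −0.21 for the 96 genes, −0.42 and −0.46 for connexins, −0.45 and −0.55 for mucins, −0.21 and −0.36 for protocadherins, and −0.15 and −0.28 for type I keratins, and at 0.01 it was 0.13 for desmosomal genes. With the filter it was −0.13 for the filtered members, 0.18 for cadherins, −0.42 for connexins, −0.18 for desmosomal genes, −0.34 for mucins and −0.067 for type I keratins, and 0 protocadherins were left. Median centring, which moves every log2 fold change by the same amount, gave −0.094 for the 96 genes, −0.084 for protocadherins and −0.097 for type I keratins. Quantile normalisation gave −0.066 for type I keratins, and equal library sums −0.046 for cadherins. With a library left out, medians ranged from −0.061 to −0.016 for the 96 genes, −0.40 to −0.16 for S100 genes, −0.068 to 0.22 for cadherins, −0.32 to −0.096 for connexins, −0.045 to 0.0064 for protocadherins and −0.076 to −0.033 for type I keratins. The cause of the other moves was not tested.

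Single genes changed sign as follows. ANXA2 was −0.0047 with quantile normalisation, PCDHGB1 −0.0061 with median centring, and CDH1 −0.065 with equal library sums, −0.030 with quantile normalisation and −0.0077 with median centring. With a library left out, CDH1 ranged from −0.14 to 0.39, ANXA9 from −0.33 to 0.029, DSG2 from −0.44 to 0.073, DSP from −0.23 to 0.13, KRT20 from −0.034 to 0.021, PCDHGC3 from −0.037 to 0.31 and S100P from −0.12 to 0.26.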
